A study of Mus musculus with 6 samples.

Results

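Mature granule cells of the dentate gyrus are described here through 7 marker genes, Prox1, Calb1, C1ql2, Trpc6, Tdo2, Lct and Dsp, in hippocampus of mice that had drunk the antidepressant venlafaxine. The genes were listed by name, as markers of mature granule cells; no measured value enters the rule, but earlier results of these data were known when the list was drawn up. On the array they are represented by 16 probe sets whose annotation names exactly 1 gene, out of 45101 probe sets, and by 7 of the 18193 genes measured. Each gene is read from its brightest probe set, judged by the mean of the 6 arrays, and all 7 genes were among the 11743 that were bright enough to be tested, that is, above the array's median on at least 2 arrays.

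Granule cells are the principal neurons of the dentate gyrus; they receive the input from the entorhinal cortex and send mossy fibres to the pyramidal cells of CA3. They are generated throughout adult life in mice, pass through an immature stage marked by genes such as Dcx (doublecortin) and Calb2 (calretinin), and switch to mature markers such as Calb1 (calbindin). In mice given the serotonin reuptake inhibitor fluoxetine, mature granule cells have been reported to lose calbindin and other mature markers and to regain features of younger cells, a state called dematuration. The question put to the data is therefore whether these mature markers differed in level between mice given venlafaxine, a serotonin and noradrenaline reuptake inhibitor, and mice given none.

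Male DBA/2 mice, an inbred strain, were housed singly and took up venlafaxine with their drinking water at 0 (control), 30 (low dose) or 100 (high dose) mg per kg body weight and day for 30 days. Hippocampal RNA of 10 animals per dose was pooled by brain side, so that each dose is represented by 2 Affymetrix mouse genome arrays, 1 of left and 1 of right hippocampi, and the spread within a dose is between pools and not between animals. The control arrays are a right pool (control 1) and a left pool (control 2), the low dose arrays a right pool (low dose 1) and a left pool (low dose 2), and the high dose arrays a left pool (high dose 1) and a right pool (high dose 2). Control 2 and high dose 2 were hybridized at a later date than the other 4 arrays and had the lowest RNA integrity numbers (RIN), 7.9 and 8.2, against 8.5 to 9.1 on the first date. Hybridization date and RIN can therefore not be told apart, and both low dose arrays belong to the first date.

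The deposited values are log2 expression and ran between 6.10 and 15.31, with array medians of 7.79 to 7.80. Arrays of the same date correlated at 0.997 to 0.998 across probe sets and arrays of different dates at 0.995, so the 2 later arrays stood apart from the rest. Dose differences of the markers are therefore also given within a date. Because RNA came from whole hippocampus, fewer granule cells and less RNA per granule cell cannot be told apart. Some of the markers are also made by other hippocampal cells: calbindin by CA1 pyramidal cells and interneurons, and Prox1 by some interneurons.

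The promoters of the 4 markers whose levels correlated most with RIN over the arrays (Lct, Trpc6, C1ql2 and Dsp) and of Tdo2, the marker with the greatest dose difference, are printed to show how unlike they are in composition. Sequences are from RefSeq on build GRCm38.p6 and run from 250 bases before to 50 after the annotated start. The set of promoters used here held 6 of the 7 genes, Calb1 being the one without an entry. Capitals mark every E-box (CANNTG, the core bound by basic helix-loop-helix factors such as Neurod1) and every TATA box (TATAAA), searched on both strands.
Lct, chr1:128328269-128328568, minus strand: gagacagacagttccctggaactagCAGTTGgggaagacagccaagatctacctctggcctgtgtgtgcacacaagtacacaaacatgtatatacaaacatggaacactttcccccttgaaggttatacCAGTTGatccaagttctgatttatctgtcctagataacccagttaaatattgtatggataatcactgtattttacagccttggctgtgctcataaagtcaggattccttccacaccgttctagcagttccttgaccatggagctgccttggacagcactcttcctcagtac
Trpc6, chr9:8543892-8544191, plus strand: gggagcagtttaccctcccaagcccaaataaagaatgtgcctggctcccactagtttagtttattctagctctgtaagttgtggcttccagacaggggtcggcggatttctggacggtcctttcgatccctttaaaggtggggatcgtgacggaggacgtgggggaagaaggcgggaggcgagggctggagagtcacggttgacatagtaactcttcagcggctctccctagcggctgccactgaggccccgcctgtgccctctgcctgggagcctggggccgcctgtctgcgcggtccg
C1ql2, chr1:120340332-120340631, plus strand: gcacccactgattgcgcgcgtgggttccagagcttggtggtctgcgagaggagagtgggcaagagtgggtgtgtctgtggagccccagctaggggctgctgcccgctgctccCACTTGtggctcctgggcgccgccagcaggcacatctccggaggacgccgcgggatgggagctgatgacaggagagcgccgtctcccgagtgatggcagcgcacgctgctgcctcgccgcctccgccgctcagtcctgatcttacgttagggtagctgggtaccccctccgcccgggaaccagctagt
Dsp, chr13:38151044-38151343, plus strand: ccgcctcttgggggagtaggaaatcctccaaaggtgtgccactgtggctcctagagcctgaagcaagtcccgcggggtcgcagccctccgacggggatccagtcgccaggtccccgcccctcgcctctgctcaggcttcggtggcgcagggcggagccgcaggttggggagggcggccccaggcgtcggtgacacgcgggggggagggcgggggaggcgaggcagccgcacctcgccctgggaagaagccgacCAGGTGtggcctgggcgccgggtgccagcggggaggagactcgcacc
Tdo2, chr3:81975679-81975978, minus strand: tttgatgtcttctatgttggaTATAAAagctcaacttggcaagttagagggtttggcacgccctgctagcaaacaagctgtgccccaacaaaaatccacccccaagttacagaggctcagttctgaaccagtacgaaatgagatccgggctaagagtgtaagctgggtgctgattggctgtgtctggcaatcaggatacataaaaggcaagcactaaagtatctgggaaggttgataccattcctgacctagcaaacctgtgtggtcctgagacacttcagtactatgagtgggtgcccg

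Dsp and C1ql2 have GC-rich promoters, with 73.0% and 67.3% GC and 27 and 23 CpG dinucleotides, where the median of 32851 mouse promoters was 52.7% GC and 7 CpG. Lct and Tdo2 lie below that median, with 44.7% and 47.7% GC and 1 and 4 CpG, and Trpc6 lies above it with 60.0% GC and 17 CpG. E-boxes were found at 2 places in the Lct window and at 1 place each in those of C1ql2 and Dsp, and at none in those of Trpc6 and Tdo2. E-box letters occur in 72.3% of all promoters. Tdo2 alone among these 5 has a TATAAA, which 13.6% of all promoters share. The first 4 thus include promoters of high and of low GC content, and neither motif is found in all 4.

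Prox1 encodes the homeobox transcription factor that specifies granule cells and maintains their identity. Its log2 level was 8.47 and 8.31 on the control arrays, 8.16 and 8.17 on the low dose arrays and 7.96 and 8.39 on the high dose arrays. Both low dose values were lower than either control value, whereas the high dose pair spanned almost the whole range seen for the gene, its first-date array being the lowest of all 6.

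Calb1 encodes the calcium buffer calbindin, the usual protein marker of mature granule cells and the one whose loss is a sign of reported dematuration. It was measured at 12.55 and 12.46 on the control arrays, 12.48 and 12.64 on the low dose arrays and 12.42 and 12.57 on the high dose arrays. All 3 dose groups overlapped, and the standard deviation over the 6 arrays, 0.079, was smaller than the median of all tested genes, 0.0925.

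C1ql2 encodes a secreted complement C1q-like protein that granule cells release at mossy fibre synapses, where it helps to recruit kainate receptors. Its values were 8.98 and 8.70 on the control arrays, 8.97 and 8.93 on the low dose arrays and 8.91 and 8.78 on the high dose arrays. The control pair enclosed all the treated arrays, and the 2 later-date arrays were the 2 lowest.

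Trpc6 encodes a receptor-operated cation channel that lets calcium into the cell. It gave 8.88 and 8.63 on the control arrays, 8.75 and 8.91 on the low dose arrays and 8.82 and 8.56 on the high dose arrays. Here too the later-date arrays were the 2 lowest and the dose groups overlapped.

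Tdo2 encodes tryptophan 2,3-dioxygenase, which opens the kynurenine route of tryptophan breakdown and so draws on the precursor of serotonin. Its probe set was above the array median on 5 of 6 arrays, with 7.93 and 7.72 on the control arrays, 7.98 and 8.02 on the low dose arrays and 8.07 and 8.17 on the high dose arrays. It was the only member whose 3 dose groups did not overlap at all, and its order followed the dose. The share of all tested genes with 3 separate dose groups was not computed. Taken in pairs, groups did not overlap for 26.7% of tested genes between high dose and control. The share was 21.2% between low dose and control and 41.3% between the high and the low dose.

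Lct encodes lactase, the milk sugar enzyme of the gut, whose transcript is also a marker of mouse granule cells. Its level was 9.98 and 9.50 on the control arrays, 9.97 and 10.08 on the low dose arrays and 10.06 and 9.86 on the high dose arrays. Control 2 was the lowest array by a wide margin and high dose 2, the other later-date array, the next lowest.

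Dsp encodes desmoplakin, which anchors intermediate filaments at desmosomes. It reached 10.32 and 9.80 on the control arrays, 10.24 and 10.38 on the low dose arrays and 10.03 and 10.20 on the high dose arrays. Control 2 was again the lowest, and the 2 control arrays lay as far apart as any other 2 arrays except control 2 and low dose 2.

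**Figure D1:**
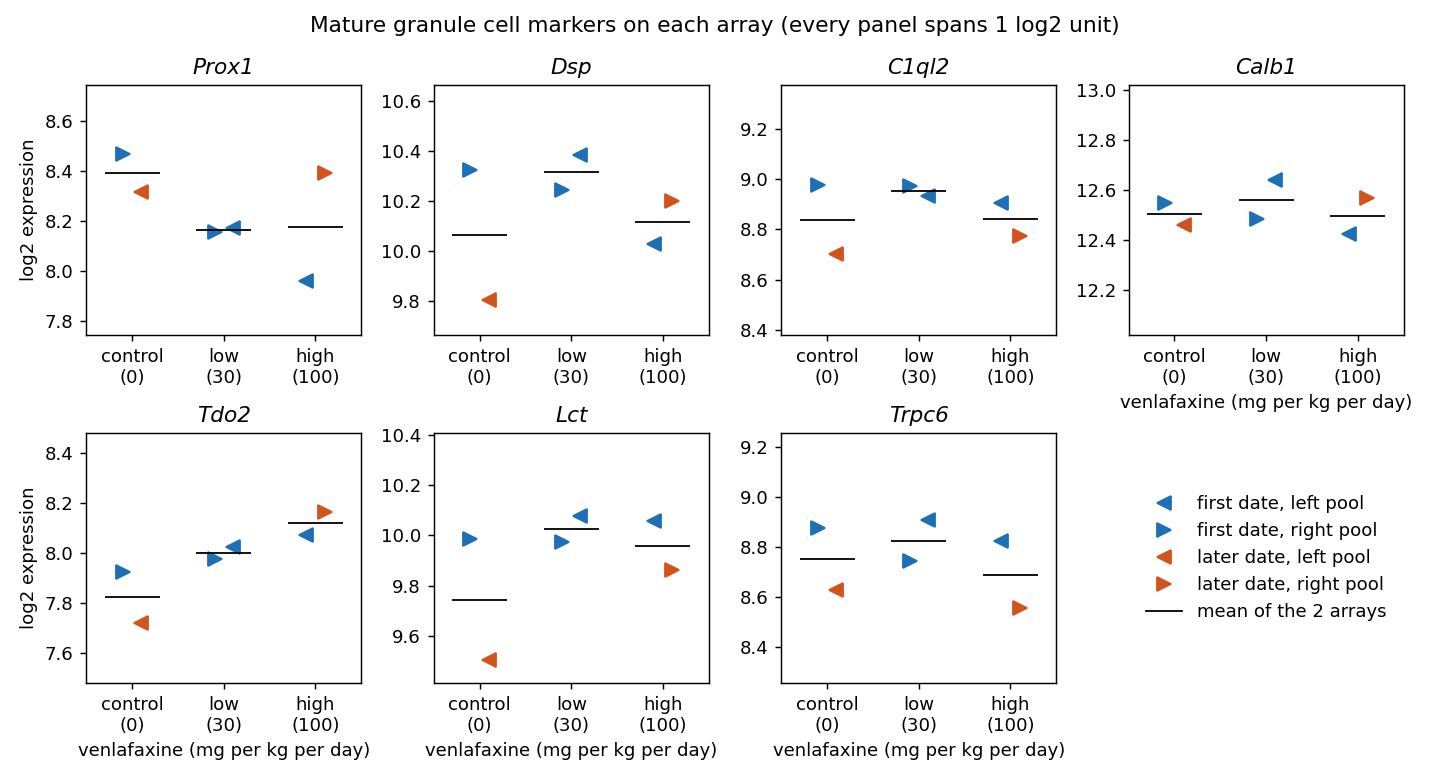
Log2 expression of the 7 markers (vertical axis, 1 log2 unit per panel) at each venlafaxine dose in mg per kg per day (horizontal axis). Each symbol is 1 array; colour gives the hybridization date, the direction of the triangle the brain side, and the line the mean of the 2 arrays of a dose. Tdo2 is the member whose dose groups are fully separated, and all 7 markers, Tdo2 included, are lower on the later-date control array than on the first-date one.

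Between high dose and control, 0 of 7 markers passed limma's moderated test after Benjamini-Hochberg adjustment over 11743 genes (adjusted p of 1.00 for each), against 0.00852% of all tested genes (1 gene). With the replicate number as a block, which marks the date in these groups, 10 genes and 0 markers passed. At an unadjusted p under 0.05 there was 1 member, Tdo2, against 2.76% of tested genes. Tdo2 averaged 8.12 ± 0.067 at the high dose and 7.82 ± 0.15 in controls (SD, n = 2 each), a log2 difference of 0.30 with a standard error of 0.105, a 95% interval of 0.08 to 0.51 and an unadjusted p of 0.00955 in limma's test. It stood above 99.9% of tested genes in signed difference.

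Calb1 averaged 12.49 ± 0.10 at the high dose and 12.50 ± 0.065 in controls, with a difference of -0.0089 and an interval from -0.23 to 0.21. A loss of calbindin transcript beyond 0.23 log2 units lies outside that interval, and smaller differences in either direction could not be resolved with 2 arrays per dose. C1ql2, at 8.84 ± 0.092 at the high dose and 8.84 ± 0.20 in controls, differed by 0.0014 (interval -0.22 to 0.23).

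Prox1 averaged 8.17 ± 0.30 at the high dose and 8.39 ± 0.11 in controls, a difference of -0.22 (interval -0.46 to 0.03). Lct averaged 9.96 ± 0.14 at the high dose and 9.74 ± 0.34 in controls, a difference of 0.22 (interval -0.04 to 0.48). The remaining members, Dsp at 0.05 (interval -0.21 to 0.32) and Trpc6 at -0.06 (interval -0.30 to 0.17), lay close to 0. In all, 4 markers had the higher mean at the high dose and 3 the lower, and 35.9% of tested genes had the higher mean at the high dose. The median difference was 0.0014 over the markers and -0.03 over all tested genes. High dose and control arrays did not overlap for 1 of 7 markers, Tdo2, against 26.7% of tested genes in either direction and 8.03% with the high dose above control.

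At the low dose, 0 of 7 markers passed limma's test against control at an adjusted p under 0.05, against 0.0426% of tested genes (5 genes), and each adjusted p was 1.00. Lct alone had an unadjusted p under 0.05, which 3.32% of tested genes had: it averaged 10.03 ± 0.074 at the low dose and 9.74 ± 0.34 in controls, a difference of 0.28 (interval 0.02 to 0.54). Dsp, at 10.31 ± 0.099 at the low dose and 10.06 ± 0.37 in controls, differed by 0.25 (interval -0.01 to 0.52). For both genes the difference rested on the later-date control array. Without control 2 it was 0.04 for Lct and -0.0082 for Dsp, and without control 1 it was 0.53 and 0.51. Without control 1, the low dose arrays are of the first date and the only control is of the later one. Dose and date can then not be told apart.

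Prox1 averaged 8.17 ± 0.011 at the low dose and 8.39 ± 0.11 in controls, a difference of -0.23 (interval -0.47 to 0.02), and Tdo2 averaged 8.00 ± 0.034 at the low dose and 7.82 ± 0.15 in controls, a difference of 0.18 (interval -0.04 to 0.39). These were the 2 of 7 markers whose low dose and control arrays did not overlap, against 21.2% of tested genes. C1ql2 (0.11), Calb1 (0.06) and Trpc6 (0.07) were nearer to 0. With 6 markers higher and 1 lower, the median difference was 0.11 over the markers and 0.04 over all tested genes, 67.6% of which had the higher mean at the low dose. Some lists of other cells lay further from 0 in the same direction: 8 of 8 oligodendrocyte genes were higher at the low dose, with a median of 0.29 and 7 with an unadjusted p under 0.05, 9 of 9 choroid plexus genes with a median of 0.25, and 7 of 8 CA2 and CA3 pyramidal genes with a median of 0.20. None of the genes in these 3 lists passed limma's adjusted threshold, and the part of tissue composition in the markers' values was not tested. Among first-date arrays the low dose minus control medians were 0.15 for oligodendrocyte, 0.13 for choroid plexus and 0.09 for CA2 and CA3 genes, and -0.0082 for the markers.

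**Figure D2:**
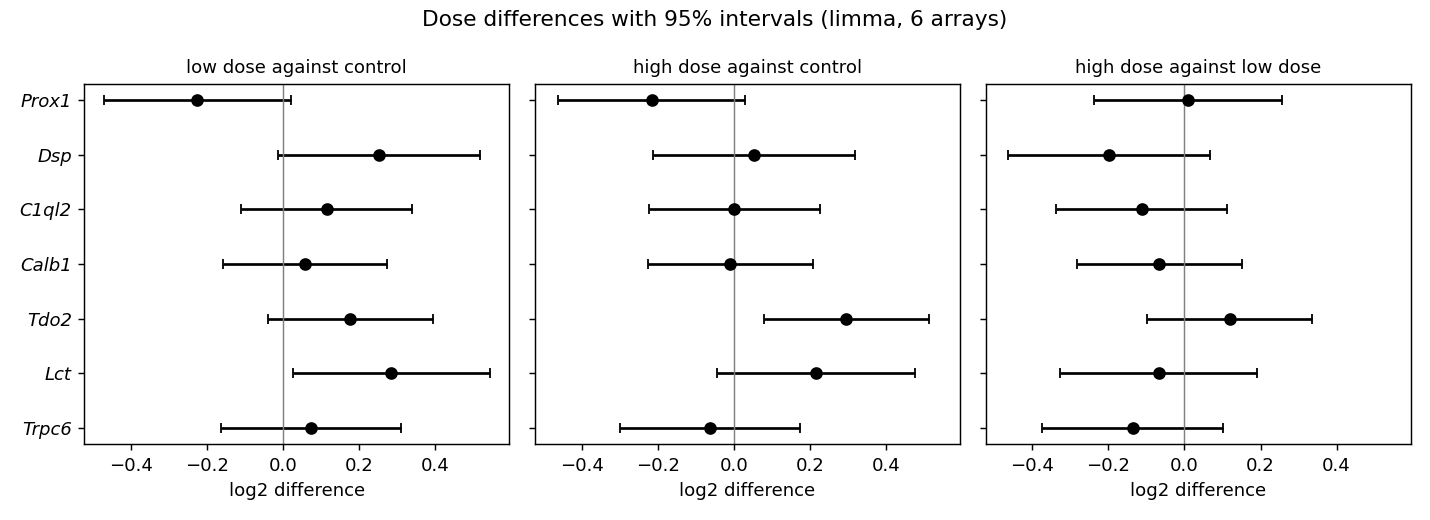
Log2 differences (horizontal axis) of the 7 markers between dose groups, as points with 95% intervals from limma's fit to 6 arrays; positive values mean higher in the group named first. The intervals for Tdo2 at the high dose and Lct at the low dose lie above 0 before adjustment for the number of genes, and the others reach 0.

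Between the high and the low dose, 0 of 7 markers and 0% of tested genes passed limma's test after adjustment, and 0 markers had an unadjusted p under 0.05, against 6.21% of tested genes. The largest differences were Dsp at -0.20 (interval -0.46 to 0.07) and Trpc6 at -0.14. Arrays of the high and low dose did not overlap for 3 of 7 markers, with Tdo2 higher and Dsp and C1ql2 lower at the high dose, against 41.3% of tested genes. The median difference was -0.07 over the markers and also over all tested genes. Among first-date arrays, where high dose 1 stands against both low dose arrays, the difference was -0.29 for Dsp, -0.21 for Prox1, -0.14 for Calb1 and between -0.05 and 0.07 for the other 4 markers. Prox1, at 0.0092 over all arrays, was thus lower at the high dose among first-date arrays alone.

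Fitted against dose as a number over all 6 arrays, 0 of 7 markers and 0% of tested genes passed after adjustment, and 1 marker, Tdo2, had an unadjusted p under 0.05, against 3.39% of tested genes. Its slope was 0.27 log2 units per 100 mg per kg per day (standard error 0.0945, interval 0.07 to 0.48, unadjusted p = 0.0137 and adjusted p = 0.998 in limma). Prox1 had a slope of -0.18 and Lct one of 0.16. Restricted to the 4 first-date arrays, the slope of Prox1 was -0.45. In this fit the 1 control array is a right pool and the 1 high dose array a left pool, so dose and side are not separated between them. Among later-date arrays Prox1 was higher at the high dose than in control, by 0.08.

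High dose and control have 1 array each at each date and on each side. The difference can therefore be read within a date or a side, as 1 array minus 1 array and without a test. In these pairs, arrays of the same date are of opposite sides, and arrays of the same side are of different dates. A difference within a date is thus also one between sides, and a difference within a side also one between dates. Tdo2 was higher at the high dose in all of these pairs, which follows from its high dose and control arrays not overlapping. The difference was 0.45 among later-date and 0.15 among first-date arrays, and 0.35 in left and 0.24 in right pools. Calb1 differed by 0.11 among later-date and by -0.13 among first-date arrays.

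For the other markers the sign depended on the pair. On its main probe set the high dose minus control difference of Dsp was 0.40 among later-date and -0.29 among first-date arrays. Its second probe set, described below, was higher at the high dose on both dates. For Prox1 the high dose minus control difference was 0.08 among later-date and -0.51 among first-date arrays, and for Lct 0.36 and 0.07 in the same order. Among later-date arrays 6 of 7 markers were higher at the high dose, as were 58.9% of tested genes, and among first-date arrays 5 of 7 were lower, as were 77.6%. The low dose can be set against control within a date only on the first, where the differences were -0.30 for Prox1 and between -0.05 and 0.07 for the other 6 markers.

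The date itself was compared with dose group as a term in the fit. Lct fell on the later date by 0.34 log2 units (interval -0.52 to -0.16, adjusted p = 0.00687 in limma) and was the 1 of 7 markers that passed, against 6.97% of tested genes (818 genes). C1ql2 at -0.20 (unadjusted p = 0.0275, adjusted p = 0.182) and Trpc6 at -0.26 (unadjusted p = 0.00525, adjusted p = 0.0641) did not pass limma's threshold after adjustment; with Lct they made 3 markers with an unadjusted p under 0.05, against 19.5% of tested genes. Dsp was at -0.17, Tdo2 at -0.06, Calb1 at 0.03 and Prox1 at 0.14. The same 3 markers, C1ql2, Lct and Trpc6, were lower on both later arrays than on all 4 first-date arrays, as were 30.1% of tested genes, while 35.3% were separated in either direction. Counting means alone, 2 markers were higher and 5 lower on the later date, where 31.1% of tested genes were higher, and the median difference was -0.17 over the markers and -0.06 over all tested genes. The fall of Lct lost its call when RIN entered the fit, at -0.17 with an adjusted p of 1.00, when side was added as a term, with an adjusted p of 0.0580, and when either control array was left out, at -0.20 with an adjusted p of 0.873.

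The shift between dates was not alike in the dose groups. In the high dose arrays the later minus first date difference was 0.43 for Prox1, 0.17 for Dsp, -0.13 for C1ql2, 0.14 for Calb1, 0.09 for Tdo2, -0.20 for Lct and -0.27 for Trpc6. In the control arrays it was -0.15, -0.52, -0.28, -0.09, -0.21, -0.48 and -0.25 for the same genes. Thus 3 of 7 markers were lower on the later date at the high dose, as were 51.5% of tested genes, and 7 of 7 were lower in controls, as were 78.4% of tested genes. These pairs also differ in brain side, the later array being the right pool at the high dose and the left pool in controls.

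**Figure D3:**
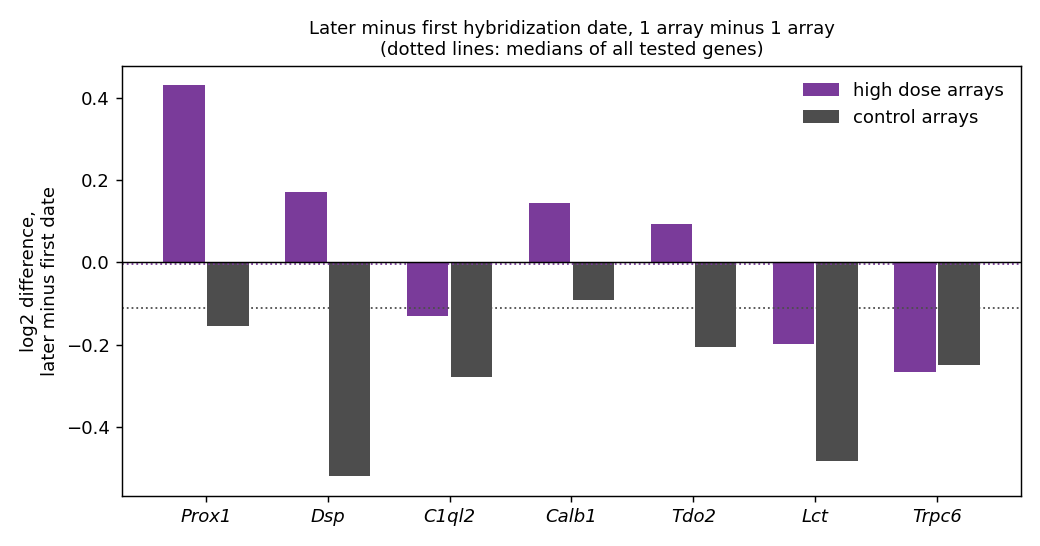
Log2 difference between the later and the first hybridization date (vertical axis) for each marker, from 1 high dose array minus 1 high dose array and from 1 control array minus 1 control array; dotted lines are the medians of all tested genes. All 7 control bars point down, from -0.09 for Calb1 to -0.52 for Dsp, whereas the high dose bars point both ways.

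Between left and right hippocampi, 0 of 7 markers passed limma's test with dose group as a term, against 0% of tested genes, and 0 had an unadjusted p under 0.05, against 0.341% of tested genes. Prox1 at -0.19 (unadjusted p = 0.0763 in limma) and Dsp at -0.18 (unadjusted p = 0.0860) were the largest differences, both lower on the left. In all, 1 marker was higher and 6 lower on the left, where 45.9% of tested genes were higher. Left and right arrays overlapped for all 7 markers, while 2.06% of tested genes had them separated. In the low dose pools, the only pair of sides hybridized on 1 date, the count turned round: 6 of 7 markers were higher on the left, as were 83.8% of tested genes, and left minus right ranged from -0.04 for C1ql2 to 0.16 for Trpc6.

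Across the 6 arrays the markers did not form 1 block. Dsp, C1ql2, Lct and Trpc6 correlated with each other at 0.542 to 0.855 in their 6 pairings, but pairs outside these 4 were as high, with Dsp and Calb1 at 0.762, Tdo2 and Lct at 0.698 and Dsp and Tdo2 at 0.547. Prox1 correlated with the other members at -0.40 to 0.43. These are descriptions over 6 arrays that share dates and RNA quality. Control 2 was the lowest array for 4 of the 7 markers and for 34.6% of all tested genes, and low dose 2 the highest for 4 markers and for 45.3% of tested genes. Correlation with RIN was 0.932 for C1ql2, 0.798 for Lct, 0.781 for Dsp and 0.686 for Trpc6, against 0.307 for both Calb1 and Tdo2 and -0.29 for Prox1, and the part of RNA quality in these levels was not tested. Centred on each gene's own mean, the 7 markers together averaged 0.09 and -0.19 on the control arrays, 0.01 and 0.10 on the low dose arrays and -0.03 and 0.0091 on the high dose arrays.

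Many other genes followed the same course. Of 4947 other genes with a standard deviation of at least 0.1, 421 correlated with the markers' mean profile above 0.9, led by Rhbdf1 (0.998), Aldh1l1 (0.995), Col4a2 (0.995), Fam131a (0.994), Eya1 (0.991) and Wdr18 (0.988). Aldh1l1 is an astrocyte enzyme and Col4a2 a collagen of basement membranes. The profile of Tdo2 was rarer, with 15 genes above 0.9, the nearest being Bbox1 (0.981), Nrip3 (0.939) and Gas1 (0.937). Nearest to Prox1 were Cdk7 (0.979), Zbtb16 (0.979) and Pkn2 (0.972), with 42 genes above 0.9. For C1ql2 the nearest were Nhsl1, Sardh and Vars, all at 0.997 or above, among 780 genes, and for Calb1 Gas6 (0.992), Abca1 (0.987) and Acaca (0.986), among 70. For Dsp they were Klf3, Acad11 and Chrna7, at 0.993 to 0.994, for Lct U2af1l4 (0.994), Smim19 (0.992) and Cnn2 (0.989), and for Trpc6 Klhdc2, Lman1 and Wnk2, all at 0.993 or above.

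The other probe sets of the markers bear on these values unevenly. Of the 9 further probe sets, 4 were bright enough to be tested and 5 were above the median of no array. The second Dsp probe set was nearly as bright as the main one (mean 10.14 against 10.16) and varied with it (r = 0.784). It gave a high dose minus control difference of 0.18. Unlike the main one, it read higher at the high dose than in control on both dates. The values were 10.230 against 10.155 on the first and 10.106 against 9.823 on the later date. Its low dose minus control difference was 0.26 (unadjusted p = 0.0285 in limma, not passing after adjustment), and its high minus low dose difference -0.08. The 3 dimmer Calb1 probe sets correlated with the main one at 0.365, -0.18 and -0.56 and differed by -0.07, -0.02 and 0.0072 between high dose and control. Both further Tdo2 probe sets were too dim to test and differed by 0.046 and 0.14 between high dose and control, and 1 of the 2 dim Prox1 probe sets ran against the main one (r = -0.90). C1ql2, Trpc6 and Lct have 1 probe set each.

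Genes that rise and fall with granule cell maturation were set beside the markers. Of 14 tested genes from a list of other granule cell genes, 0 passed limma's adjusted threshold at either dose. An unadjusted p under 0.05 was found for 0 at the high and 1 at the low dose, against 2.76% and 3.32% of tested genes. At the high dose 5 were higher and 9 lower than in controls, where 35.9% of tested genes were higher. The median difference was -0.04 beside -0.03 for all tested genes. Examples were Gsg1l, an AMPA receptor auxiliary subunit, at -0.18, Tiam1, a Rac activator, at -0.17, Rfx3, a transcription factor of ciliated cells, at -0.10 and Ppp1r1a, a phosphatase inhibitor, at 0.10. Gsg1l had the lowest difference of the list at the low dose, -0.34, with an unadjusted p of 0.00524 and an adjusted p of 1.00 in limma. On the later date the transcription factor gene Bcl11b rose by 0.33 (adjusted p = 0.010 in limma), and Sema5a, a guidance molecule, and Synpr, a synaptic vesicle protein, fell by 0.47 and 0.29.

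Of 15 tested genes of immature granule cells and young neurons, 0 passed limma's adjusted threshold at either dose. An unadjusted p under 0.05 was found for 0 at the high and 1 at the low dose, against 2.76% and 3.32% of tested genes. At the high dose 6 were higher and 9 lower, with a median of -0.03. Of all tested genes 35.9% were higher there, also with a median of -0.03. Dcx had log2 levels of 8.92 and 8.95 on the control arrays, 8.65 and 8.88 on the low dose arrays and 8.94 and 8.96 on the high dose arrays, a high dose minus control difference of 0.01. Calb2 read 9.56 and 9.33 on the control arrays, 9.45 and 9.90 on the low dose arrays and 9.45 and 9.30 on the high dose arrays. Its difference from control was -0.07 at the high and 0.23 at the low dose, its second low dose array being the highest of all, and in mice it is also strong in the mossy cells of the hilus. Neurod1, a basic helix-loop-helix factor of differentiating granule cells, gave 10.34 and 10.41 on the control arrays, 10.35 and 10.35 on the low dose arrays and 10.17 and 10.73 on the high dose arrays. Its high dose arrays lay on both sides of all others, and it rose on the later date by 0.32 (adjusted p = 0.0147 in limma). Tubb2b, a tubulin of young neurons, fell on the later date by 0.38 (adjusted p = 0.00162 in limma). Thus 1 gene of the list rose and 1 fell with the date, where 6.97% of tested genes passed.

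The largest high dose statistics in this list were those of Sox11 (-0.22), Sox4 (-0.17) and Tubb2b (-0.17), which are high in young neurons, and of the progenitor filament gene Nes (0.13), with adjusted p of 1.00 in limma. Nnat, a small membrane protein of developing brain, differed by 0.33 at the low dose (unadjusted p = 0.00952, adjusted p = 1.00 in limma).

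A last list held receptor and kinase genes that figure in reports on dematuration, with no direction assigned to them here. All 4 that could be tested, Drd1, Htr4, Htr1a and Camk2a, had lower means at the high dose than in controls, where 35.9% of tested genes were higher. Of these, 0 passed limma's adjusted threshold and 1, Drd1, had an unadjusted p under 0.05, as had 2.76% of tested genes. At the low dose 2 were higher and 2 lower, with a median of 0.0030. Among later-date arrays 2 of 4 were lower at the high dose, and among first-date arrays 4 of 4. Drd1, the D1 dopamine receptor, read 9.43 and 9.91 on the control arrays, 9.26 and 9.40 on the low dose arrays and 9.38 and 9.32 on the high dose arrays. Control 2 alone stood high, and the differences were -0.32 at the high and -0.34 at the low dose (unadjusted p = 0.0158 and 0.00992, adjusted p = 1.00 each in limma). Drd1 is also a marker of striatal neurons. Without Drd1 itself, a choice made after seeing the data, 5 of 5 tested striatal genes were lower at the high dose than in controls, with a median of -0.33, and averaged, after centring, -0.05 and -0.36 on the high dose arrays and 0.07 and 0.18 on the control arrays. The part of striatal tissue in the Drd1 difference was not tested. Htr4, a serotonin receptor of granule cells, read 9.07 and 8.64 on the control arrays, 8.82 and 8.94 on the low dose arrays and 8.65 and 8.70 on the high dose arrays, a difference of -0.18 at the high dose. Htr1a was at -0.14 and Camk2a at -0.08.

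**Figure D4:**
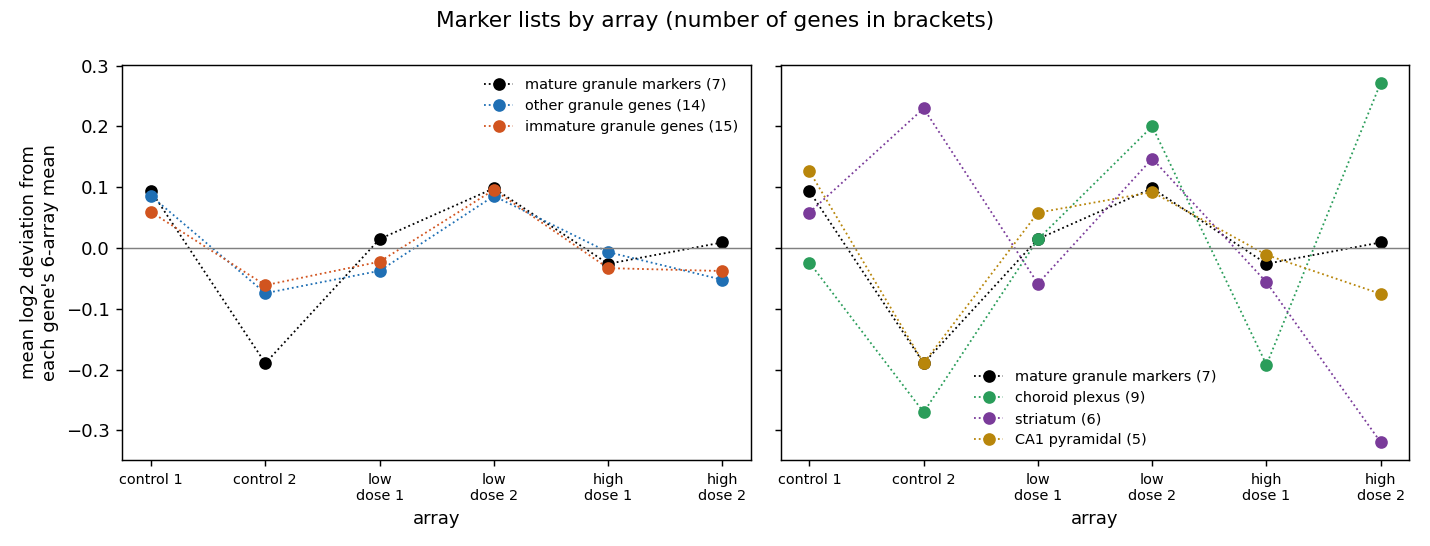
Mean log2 deviation of the genes of a list from their own 6-array means (vertical axis) on each array (horizontal axis); thin dotted lines only guide the eye. On the left the mature markers stand beside other and immature granule cell genes, and on the right beside choroid plexus, striatal and CA1 genes; the mature markers are lowest on control 2, at -0.19.

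Markers of neighbouring tissue were also measured. Of the choroid plexus genes, 9 of 9 had higher means at the high dose than in controls, where 35.9% of tested genes were higher, with a median of 0.16, and their centred means were -0.19 and 0.27 on the high dose arrays and -0.02 and -0.27 on the control arrays. Of the meningeal genes 7 of 7 were higher at the high dose, with a median of 0.25, and of the neocortical genes 6 of 6 were lower, with a median of -0.25. The choroid plexus median was 0.55 among later-date and -0.10 among first-date arrays, the striatal one -0.54 and -0.12, the meningeal one 0.34 and 0.11 and the neocortical one -0.29 and -0.24 in the same order. Lists of other hippocampal cells lay nearer to 0 at the high dose, with medians of 0.03 for CA1 and 0.10 for CA2 and CA3 pyramidal cells, 0.01 for interneurons, 0.02 for astrocytes and -0.05 for oligodendrocytes. No gene of these lists passed limma's adjusted threshold in the high dose comparison; an unadjusted p under 0.05 was found for 5 of 5 striatal genes besides Drd1, 3 of 7 meningeal, 2 of 9 choroid plexus and 2 of 6 neocortical genes, against 2.76% of tested genes. The part of neighbouring tissue in the granule cell values was not tested.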

How the data were processed

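RNA from left or right hippocampi of 10 mice per dose was labelled from 100 ng per reaction, per the labels' protocols, and hybridized to 6 arrays. The values are log2 expression per probe set as the authors deposited them; the submitters' processing notes name RMA and R 3.0.1, and no source used here gives RMA's settings. Nothing in the labels says whether the left and right pools come from the same animals, so p-values do not measure the spread between animals. The arrays of a dose differ in side, and those of control and high dose also in date and RIN. These differences enter the spread used in the dose comparisons. limma also draws that spread from all tested genes, with 21.0 prior degrees of freedom in the fit of dose groups. The dose is given in the labels as a characteristic with a misprinted unit; mg per kg and day is taken from the protocol.

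From these values, 64 control probe sets were dropped, symbols were updated through gene identifiers (34741 probe sets) and 34945 probe sets with 1 symbol were kept; 932 with several symbols and 9160 with none were not used. For the 9010 genes with more than 1 probe set the brightest was used. Genes above the array median on at least 2 arrays were tested with limma 3.58.1 (lmFit and eBayes, R 4.3.3), two-sided, with Benjamini-Hochberg adjustment over 11743 genes and a threshold of 0.05, in 1 fit of 3 dose groups. In the fit with date and dose and in that with side and dose the prior degrees of freedom were infinite. Within each of these fits all genes share 1 standard error. The number of arrays limits the precision.

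The 7 markers, the other gene lists and the tests were chosen with earlier results of these data known. Named besides the members are the genes most like their profiles over the 6 arrays (standard deviation at least 0.1), up to 4 genes of each granule cell list with the largest high dose statistic, every gene of those lists that passed a test on dose, and Calb2, Dcx, Neurod1, Drd1 and Htr4. Genes of those lists named for the date, Gsg1l and Nnat at the low dose, and the striatal list without Drd1 were chosen after their values were seen. Maml2 and Eomes were below the filter, and Adora1 had no probe set of its own with 1 symbol. Replicate numbers of control and high dose arrays stand for the same date in the labels, and their replicate differences correlated at 0.540; those of control and low dose arrays, whose numbers share a side but not always a date, correlated at 0.0765, and those of low and high dose arrays at 0.133. Promoters were also searched for TGACG and GGGCGG, which 20.8% and 35.7% of all promoters hold; among the printed ones TGACG occurs in Trpc6 alone and GGGCGG in Dsp and C1ql2, and no 2 motif matches overlap.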

Additional observations from a re-analysis of the deposited data

Results flagged for a closer look

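For 5 of the 7 markers the difference from control had opposite signs in left and in right pools. Each value is 1 array minus 1 array, and the left control and the right high dose pools are also the later-date arrays. At the high dose the gap between sides adds the first-date arrays and subtracts the later-date ones. It is thus the date difference given above, scaled and with its sign turned, and not a separate result on side. For Lct that date difference was -0.34 (adjusted p = 0.00687 in limma). Whether the response to dose differs between sides was not tested. At the high dose Lct differed from control by 0.56 in left pools and by -0.12 in right pools, a gap of 0.68 between the sides. Trpc6 differed by 0.19 in left and -0.32 in right pools (gap 0.52), C1ql2 0.20 and -0.20 (gap 0.41), Dsp 0.23 and -0.12 (gap 0.35) and Calb1 -0.04 and 0.02 (gap -0.052). Prox1 and Tdo2 kept their sign on both sides.

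At the low dose the same 5 genes were higher than control on the left and lower on the right. Dsp differed by 0.58 in left and -0.08 in right pools (gap 0.66), Lct 0.58 and -0.01 (gap 0.59), Trpc6 0.28 and -0.13 (gap 0.41), Calb1 0.18 and -0.07 (gap 0.25) and C1ql2 0.23 and -0.0029 (gap 0.23). Both doses are set against the same control arrays, so the 2 sets of gaps are not independent.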

How the results depend on the processing

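With 2 pools per dose, small differences in these markers cannot be resolved. Of 244 recomputed counts of markers called and marker medians, 219 kept their value within the limits used and 25 did not; the cause was not tested. The high dose median, 0.0014, was 0.20 in left and -0.12 in right pools, 0.11 among later-date and -0.07 among first-date arrays, and ran from -0.14 to 0.14 when single arrays were left out. The low dose median, 0.11, was -0.10 with RIN as a covariate, 0.28 in left and -0.066 in right pools, and -0.0082 to 0.25 without single arrays. Without control replicate 1, low dose and control also differ in date. The median between the doses was 0.084 with RIN. On first-date arrays, with 1 control and 1 high dose array, the trend of Prox1 was -0.45.

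For the date, where Lct was called, 2 markers were called without the filter on dim probe sets, with probe sets averaged per gene, with median centring, with quantile normalization and with a trended robust variance, the second being Trpc6 (adjusted p of 0.0346 to 0.0471 in limma); 0 were called with side or with RIN in the fit, and 0 to 2 without single arrays. Without either high dose array these were Lct and Dsp, at -0.48 and -0.52. The date median, -0.17, was 0.12 with RIN, 0.094 in high dose arrays alone, and -0.25 to 0.094 without single arrays.

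With the replicate block 0 markers were called in the high dose comparison, Tdo2 staying at 0.30 (adjusted p = 0.945 in limma) and Prox1 at -0.22, and the block changed no other marker call; over all genes it called 10 at the high dose, 32 at the low dose and 45 between doses, where the fit without it called 1, 5 and 0. Over all alternatives the number of genes called ran from 0 to 178 at the high dose, 0 to 546 at the low dose, 0 to 152 between doses, 0 to 140 for the trend, 22 to 1499 for the date and 0 to 17 for side. Tdo2 was higher at the high dose in 17 of 17 alternatives (0.15 to 0.40, adjusted p of 0.175 to 1.00 in limma), and Prox1 lower in 18 of 18 (-0.51 to -0.00093). These alternatives reuse the same arrays. They do not include the later-date pair alone, where Prox1 was higher at the high dose than in control by 0.08. Values of single markers that had passed no test changed sign in 14 of 134 alternatives at the high dose, 17 of 134 at the low dose, 18 of 134 between doses, 21 of 127 for the trend, 14 of 99 for the date and 14 of 106 for side. Sides on first-date arrays alone could not be fitted, having no residual degrees of freedom.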
